A study of Drosophila melanogaster with 12 samples.

Results

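The actin machinery of nurse cells is described here through 10 listed genes: f, sn, qua, kel, chic, cher, hts, Src64B, Pxt and Arpc1. They were chosen as actin bundling, ring canal and prostaglandin genes, and all probe sets that name each of them alone were taken. Of the 10 genes, 9 had such a probe set, 14 probe sets in all, out of 11982 genes with a probe set of their own. Src64B, a Src family kinase needed for ring canal growth, had none under its name in the platform's gene table and was not analysed here. All 9 genes passed the filter on low values, which kept 6163 genes, and 12 of the 14 probe sets passed it.

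Ovaries were dissected from virgin females 4 to 6 h after eclosion, with 3 arrays for each of 4 genotypes and about 100 pairs of ovaries per array. The mutant A2663/v carries su(Hw)A2663 over a second su(Hw) allele, on an X chromosome with y2, w67c23, ct6 and f1, and has the EPgy2 element of CG6499EY02782. The labels disagree on that second allele, giving v in the strain name and su(Hw)2 in the genotype. The mutant Pb/2 carries su(Hw)e04061 over su(Hw)2 on the same marked X chromosome. Of the wild types, BL15598 is y1 w67c23 with the same EPgy2 element in CG6499, and Canton S carries none of these alleles. Both mutants thus carry f1, an allele of one of the 10 genes, and neither wild type does. Per the design text, such young ovaries reach no further than stage 8, which is before the stage 9 cell death of the mutants. The su(Hw) alleles are described as null and the ovaries were taken whole, so germline and somatic loss were not separated.

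A Drosophila egg chamber holds germline cells that stay joined by ring canals, stable openings left by incomplete cell divisions and lined with actin. Nurse cells feed the oocyte through these canals. Late in oogenesis they squeeze out their cytoplasm while parallel actin bundles hold their nuclei away from the openings, and mutants of bundling or ring canal genes lay small eggs or none. Prostaglandin signalling is known to promote these bundles. The alleles y2, ct6 and f1 are known as insertions of the gypsy retrotransposon, whose insulator is bound by Su(Hw), and loss of Su(Hw) is known to suppress their visible phenotypes.

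Signals are log2 values of the deposited GCRMA data, and a value of 5 was used as the floor of measurement. On the 12 arrays 37.4% to 38.6% of probe sets lay over that floor. A gene was called where the limma adjusted p was under 0.05 and the change at least 2-fold. Germline markers were present throughout, with 8 of 8 over the floor on every array. They were not all level. In mutants minus wild types Rbp9 was called higher, at 1.71 (adjusted p = 8.36e-10), where 3.98% of all genes were. At the adjusted p alone 3 of the 8 were higher and 2 lower, where 20.3% and 26.6% of all genes were. Of 6 follicle cell markers with a probe set, tj and slbo lay under the floor on every array. In BL15598 mirr lay under the floor too. Its means were 4.41 (BL15598), 8.40 (Canton S), 7.13 (A2663/v) and 8.11 (Pb/2). In mutants minus wild types mirr was called higher, at 1.22 (adjusted p = 1.72e-06). Against Canton S alone it was at -1.27 in A2663/v and -0.29 in Pb/2. Of the 4 tested follicle cell markers, 3 were higher (br, mirr and eya) and 0 lower at the adjusted p alone. Of all genes 20.3% were higher and 26.6% lower. Against BL15598, 4 were higher in A2663/v and 3 in Pb/2, with 0 lower (21% and 17.9% of all genes higher). Against Canton S, 1 was higher and 1 lower in A2663/v (12.3% and 14.6% of all genes). In Pb/2 minus Canton S 0 were higher and 1 lower (10.1% and 18.4% of all genes). The transcript of su(Hw) lay at a log2 of 2.51 to 3.42 on the 6 mutant arrays, against 8.78 to 9.30 on the 6 wild-type arrays.

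In the mutants on average 1 of the 9 genes rose and 1 fell at the call threshold: f was higher and Pxt lower. Over all 6163 genes tested, 3.98% were called higher and 1.85% lower. At an adjusted p under 0.05 with no fold minimum, 3 of the 9 were higher (f, kel and Arpc1) and 2 lower (sn and Pxt), where 20.3% and 26.6% of all genes were. That is 5 of 9 genes beside a background of 46.9%. The median log2 change of the 9 genes was 0.02, against -0.03 over all genes tested. For 4 of the 9 genes the 6 mutant and 6 wild-type arrays separated fully, f and kel above and sn and Pxt below, where 13.7% of all genes separated (5.35% above and 8.31% below). The members were chosen with earlier results of these data known, and f passed the filter only through its mutant arrays. These counts are therefore descriptions and not a test of the members against all genes. The plot of members by array shows these separations beside the genes that did not move.

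**Figure D1:**
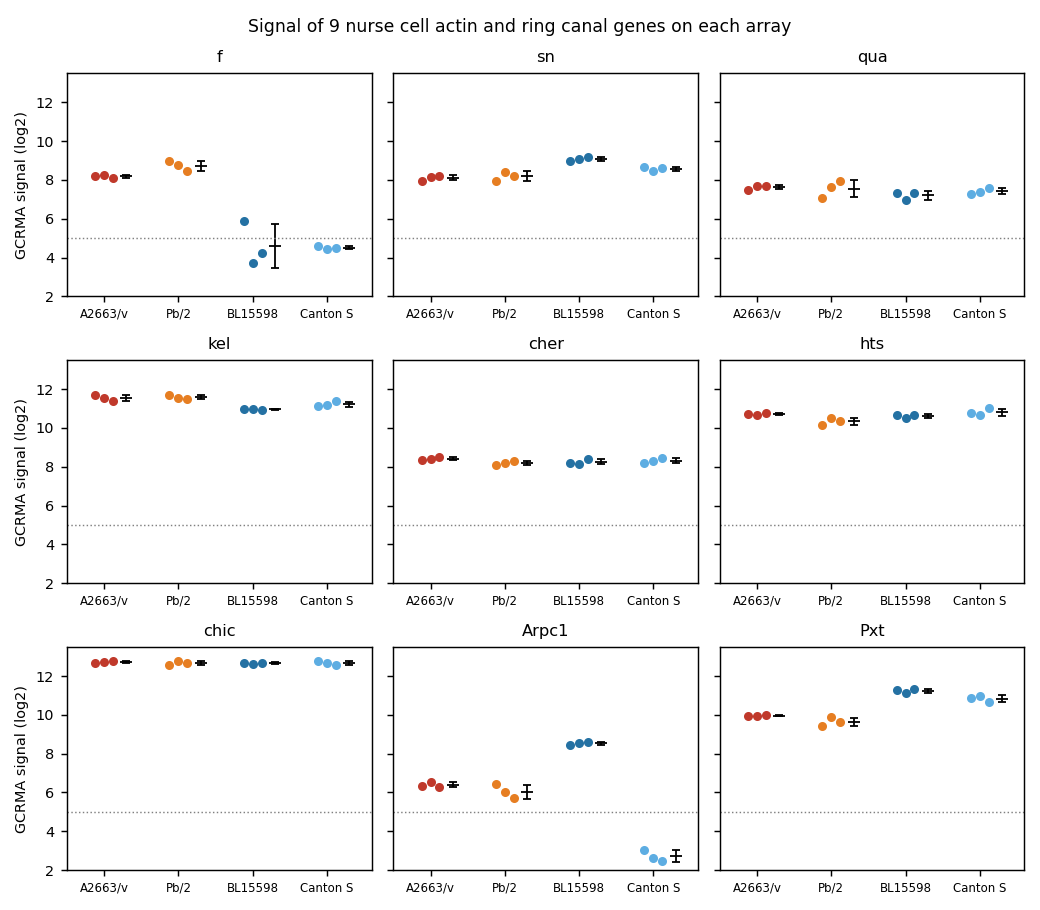
GCRMA signal (log2) of the probe set that represents each of 9 genes, with a point for each array, a black bar for the mean ± SD (n = 3) and a dotted line at the floor of 5. The mutants A2663/v and Pb/2 stand left of the wild types BL15598 and Canton S. The signal of f lies at 8.09 to 8.97 in the mutants against 3.70 to 5.88 in the wild types, Pxt lies lower in both mutants, Arpc1 differs between the wild types, and chic is level.

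The bundling proteins come first. The gene f (forked) encodes an actin-bundling protein known from bristles. It had log2 signals of 8.20, 8.26 and 8.09 in A2663/v and 8.97, 8.76 and 8.44 in Pb/2, against 5.88, 3.70 and 4.22 in BL15598 and 4.59, 4.43 and 4.50 in Canton S. All 6 mutant arrays were high, and 5 of the 6 wild-type arrays lay under the floor, the exception being replicate 1 of BL15598. The filter asked for 3 arrays over the floor, so the gene passed it only through the mutants. Its rise was 3.90 ± 0.27 on the log2 scale (SE; limma adjusted p = 1.2e-07), or 3.31 with values under the floor raised to it. Against Canton S, where every array was under the floor, it was at least 9.09-fold higher in A2663/v (adjusted p = 1.08e-05) and at least 13.2-fold higher in Pb/2 (adjusted p = 2.59e-06). The mutants differed from each other by -0.54 ± 0.39 (SE, A2663/v minus Pb/2; adjusted p = 0.458). A second probe set of f lay at 1.93 to 1.96 in the mutants and 1.94 to 1.98 in the wild types, under the floor on all arrays, so the rise was seen by 1 of 2 probe sets. Since both mutants and neither wild type carry f1, an effect of losing Su(Hw) on a normal f gene and an effect on the f1 allele cannot be told apart. Of the other genes with such an allele, y lay at 2.63 to 2.69 in the mutants and 2.61 to 2.72 in the wild types, under the floor. For ct the change was -0.40 ± 0.16 (SE, adjusted p = 0.0559). By pair ct was lower in Pb/2 against BL15598 (-0.61, adjusted p = 0.0458) and Canton S (-0.79, adjusted p = 0.02), with -0.02 and -0.20 in A2663/v (adjusted p = 0.964 and 0.584).

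The neighbours of f along the X chromosome were looked up after its values were seen. The next tested gene on one side, CG8915, had a log2 change of -0.03 (adjusted p = 0.871). On the other side CG12998 was called higher, with a change of 3.40 (adjusted p = 0.0178). Its means were 7.13 (A2663/v), 10.09 (Pb/2), 4.90 (BL15598) and 5.51 (Canton S), the BL15598 mean being under the floor. The values of CG12998 by array were not looked up, so its spread within a genotype is not given here. Beyond CG12998 baz, a polarity gene, changed by 0.56 (adjusted p = 0.000611), under the fold minimum.

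The gene sn (singed) encodes fascin, which packs actin filaments into the tight bundles of nurse cells and bristles. Its log2 signals were 7.97, 8.17 and 8.22 in A2663/v and 7.94, 8.43 and 8.19 in Pb/2, against 8.99, 9.08 and 9.17 in BL15598 and 8.65, 8.46 and 8.59 in Canton S. Every mutant array was below every wild-type array, by as little as 8.43 against 8.46. The log2 change was -0.67 ± 0.09 (SE, adjusted p = 3.72e-05), under the fold minimum. Against BL15598 it was -0.96 ± 0.12 in A2663/v and -0.89 ± 0.12 in Pb/2 (SE; adjusted p = 4.6e-05 and 8.13e-05). Against Canton S the changes were -0.45 ± 0.12 and -0.38 ± 0.12 (SE; adjusted p = 0.0151 and 0.0322). The order from high to low was BL15598, Canton S and then the 2 mutants, which did not differ at the threshold (A2663/v minus Pb/2 -0.07, adjusted p = 0.797). BL15598 was above Canton S by 0.51 ± 0.12 (SE, adjusted p = 0.00743).

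The gene qua (quail) encodes a villin-like protein that works with fascin in nurse cell bundles. Its signals were 7.50, 7.70 and 7.68 in A2663/v and 7.07, 7.61 and 7.94 in Pb/2, against 7.32, 6.95 and 7.31 in BL15598 and 7.28, 7.39 and 7.58 in Canton S. The groups overlapped, and replicate 1 of Pb/2 was the lowest mutant array. The log2 change of 0.28 ± 0.13 (SE, adjusted p = 0.102; 95% interval -0.01 to 0.56) did not pass. Without the 4 mutant arrays that carry digestive enzyme signal it was 0.52 (adjusted p = 0.0264), still under 2-fold. The 3 bundling genes thus had 1 called rise, 1 value lower at the adjusted p alone and 1 that did not pass.

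Of the ring canal genes, kel (kelch) encodes an adaptor of a Cullin-3 ubiquitin ligase that organises the actin of the canal. Its signals were 11.71, 11.56 and 11.40 in A2663/v and 11.70, 11.54 and 11.50 in Pb/2, against 10.99, 10.97 and 10.95 in BL15598 and 11.11, 11.20 and 11.37 in Canton S. The mutant arrays lay above all wild-type arrays, narrowly so over replicate 3 of Canton S. The change was 0.47 ± 0.06 on the log2 scale (SE, adjusted p = 3.93e-05), a 1.39-fold difference under the fold minimum. Against BL15598 it was 0.59 in A2663/v and 0.61 in Pb/2, and against Canton S 0.33 and 0.35, with adjusted p of 0.000153, 0.000103, 0.0121 and 0.00769. The mutants differed by -0.02 (A2663/v minus Pb/2, adjusted p = 0.9).

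The gene cher (cheerio) encodes filamin, an actin cross-linker of the canal's outer rim. It lay at 8.34, 8.40 and 8.51 in A2663/v and 8.08, 8.19 and 8.30 in Pb/2, against 8.22, 8.13 and 8.39 in BL15598 and 8.21, 8.32 and 8.43 in Canton S. The groups overlapped fully, and the log2 change was 0.02 ± 0.07 (SE, adjusted p = 0.85; 95% interval -0.14 to 0.17).

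**Figure D2:**
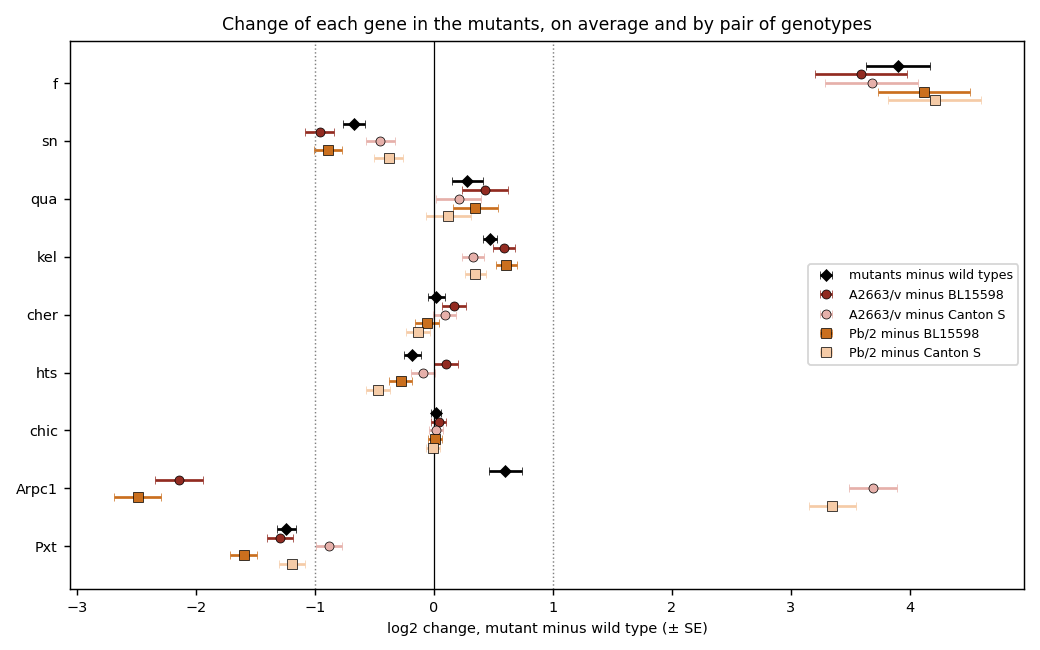
Change of 9 genes on the log2 scale (horizontal axis, ± SE) for the mutants on average (black diamonds) and for each of the 4 pairs of a mutant and a wild type, with dotted lines at 2-fold. The 4 pairs lie on the same side of 0 for f, sn, kel and Pxt. For Arpc1 they lie at -2.14 and -2.49 against BL15598 and above 0 against Canton S. The points of f and Arpc1 against Canton S rest on signals under the floor there and are not measured sizes.

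The gene hts (hu li tai shao) encodes adducin-like proteins, 1 product of which, Hts-RC, lines the ring canal, while others build the fusome and the cell cortex. Its 5 probe sets disagreed. The probe set with the highest mean, 1634962_s_at, lay at 10.71, 10.69 and 10.77 in A2663/v and 10.17, 10.51 and 10.35 in Pb/2, against 10.69, 10.49 and 10.69 in BL15598 and 10.77, 10.65 and 11.02 in Canton S. These groups overlapped, and the log2 change was -0.18 ± 0.07 (SE, adjusted p = 0.0544). By pair this probe set was lower in Pb/2 against BL15598 (-0.28, adjusted p = 0.0451) and Canton S (-0.47, adjusted p = 0.00456), under the fold minimum. In A2663/v the changes were 0.10 and -0.09 (adjusted p = 0.475 and 0.576).

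Probe set 1634736_at of hts behaved otherwise. It lay at 9.35, 9.30 and 9.40 in A2663/v and 9.36 on all 3 arrays of Pb/2, against 8.30, 8.09 and 8.44 in BL15598 and 8.33, 8.51 and 8.34 in Canton S. All mutant arrays stood above all wild-type arrays, and the mutants were nearly identical. When each of 7464 probe sets was tested separately, it was called higher, at 1.02 ± 0.07 on the log2 scale (SE, limma adjusted p = 8.1e-08), where 4.05% of probe sets were called higher. The value sits at the fold minimum. Against BL15598 it was called in both mutants, at 1.07 in A2663/v and 1.08 in Pb/2 (adjusted p = 2.29e-06 and 1.96e-06), where 4.94% and 4.69% of probe sets were called higher, and against Canton S it fell just short of 2-fold, at 0.96 and 0.97 (adjusted p = 7.25e-06 and 6.17e-06). Of the other 3 probe sets, 1641531_at changed by -0.20 (adjusted p = 0.231) and 1632191_s_at by -0.09 (adjusted p = 0.518), while 1633226_at was under the floor on all arrays. Averaging the probe sets turned the sign of the gene's change, to 0.14 (adjusted p = 0.0796). The sources used here do not say which hts transcripts each probe set detects.

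**Figure D3:**
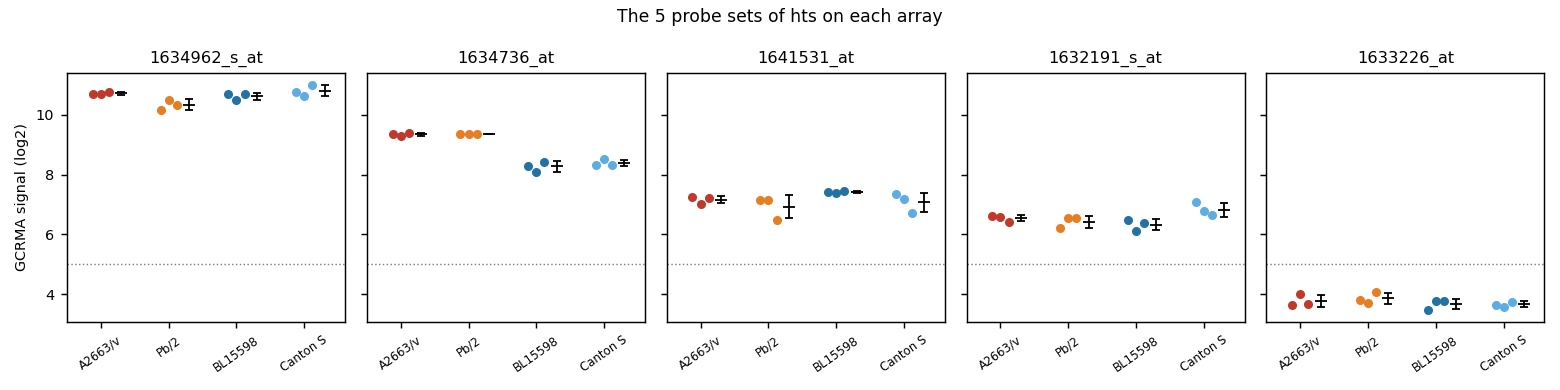
GCRMA signal (log2) of the 5 probe sets of hts, with a point for each array, a black bar for the mean ± SD (n = 3) and a dotted line at the floor of 5. Only 1634736_at separates the mutants (9.30 to 9.40) from the wild types (8.09 to 8.51).

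Of the 2 genes of actin assembly, chic (chickadee) encodes profilin, which delivers actin monomers to growing filaments. Its signals were 12.66, 12.72 and 12.76 in A2663/v and 12.56, 12.77 and 12.69 in Pb/2, against 12.69, 12.64 and 12.67 in BL15598 and 12.78, 12.68 and 12.59 in Canton S. The arrays of all genotypes shared a range. The change was 0.02 ± 0.04 (SE, adjusted p = 0.782), with a 95% interval of -0.07 to 0.10 on the log2 scale.

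Arpc1 encodes a subunit of the Arp2/3 complex, the branching nucleator that ring canals need to expand. Its signals were 6.35, 6.54 and 6.29 in A2663/v and 6.42, 6.01 and 5.70 in Pb/2, against 8.43, 8.54 and 8.62 in BL15598 and 3.04, 2.61 and 2.45 in Canton S. Canton S lay under the floor on all 3 arrays, BL15598 was the highest genotype, and both mutants stood between them. BL15598 was at least 11.6-fold higher than Canton S (adjusted p = 1.55e-10), where 2.01% of genes were called higher between the wild types. The mutants were at least 2.62-fold (A2663/v, adjusted p = 1.63e-08) and at least 2.06-fold (Pb/2, adjusted p = 3.88e-08) above Canton S. Against BL15598 the log2 change was -2.14 ± 0.20 in A2663/v and -2.49 ± 0.20 in Pb/2 (SE; adjusted p = 3.27e-06 and 7.05e-07). The 2 mutants did not differ at the threshold (0.35 ± 0.20, SE, A2663/v minus Pb/2; adjusted p = 0.347). The average of mutants minus wild types, 0.60 (adjusted p = 0.00381), therefore has no constant direction. With the Canton S arrays at the floor, the effect in A2663/v minus BL15598 lay at least 3.18 below that in Pb/2 minus Canton S on the log2 scale. The fit's adjusted p for this difference was 2.2e-08, in a test that called 7.14% of all genes. The average became -0.55 with values raised to the floor, and its adjusted p was 0.77 with genotype as a random block.

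The other tested subunits of the complex did not share this pattern. Arpc3B had a probe set but did not pass the filter on low values, and Arp2 and Arp3 had no probe set of their own. Arpc2 averaged 11.99 ± 0.10 (A2663/v), 12.04 ± 0.13 (Pb/2), 11.81 ± 0.08 (BL15598) and 12.10 ± 0.04 (Canton S; SD, n = 3). Arpc3A averaged 8.72 ± 0.11, 8.20 ± 0.10, 8.81 ± 0.03 and 8.76 ± 0.28 in that order of genotypes (SD, n = 3), lower in Pb/2 than in BL15598 (-0.61, adjusted p = 0.00162). For Arpc4 the means in that order of genotypes were 9.96, 9.73, 9.80 and 9.91. For Arpc5 they were 11.19, 11.00, 11.07 and 11.20. The log2 change of BL15598 minus Canton S was -0.28 for Arpc2 (adjusted p = 0.0109), 0.05 for Arpc3A (adjusted p = 0.812), -0.11 for Arpc4 (adjusted p = 0.473) and -0.13 for Arpc5 (adjusted p = 0.254), where it was at least 3.53 for Arpc1. The nearest tested genes on either side of Arpc1, chosen after its values were seen, were not called between the wild types, with PolG1 at -0.54 (adjusted p = 0.0735) and Orc5 at -0.06 (adjusted p = 0.83). The next one, Sos, was at -0.46 (adjusted p = 0.0258), under 2-fold. Arpc1 has a single probe set in the platform's gene table, so no second measurement of it was at hand.

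**Figure D4:**
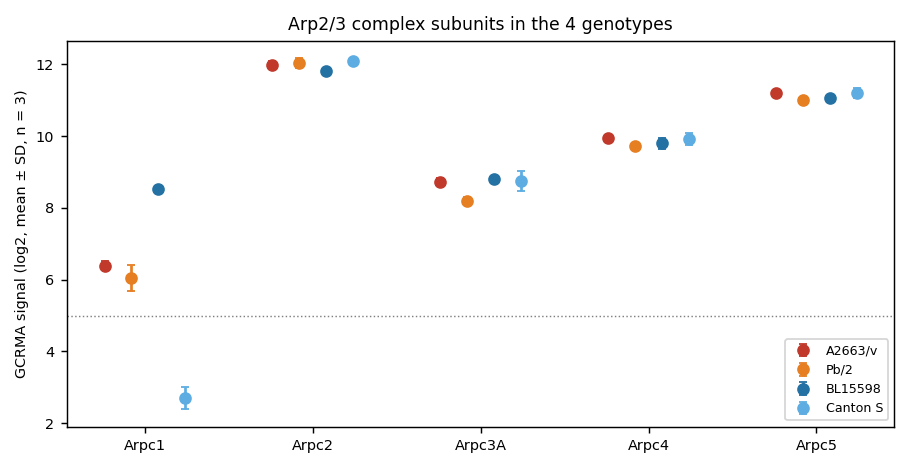
GCRMA signal (log2) of 5 Arp2/3 complex subunits, as mean ± SD (n = 3) for A2663/v, Pb/2, BL15598 and Canton S from left to right, with a dotted line at the floor of 5. Arpc1 averages 8.53 in BL15598 and 2.70 in Canton S, and no other plotted subunit lies under the floor. Arpc3B, which did not pass the filter, is not plotted. Arpc3A is lowest in Pb/2, at 8.20.

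Pxt encodes a cyclooxygenase-like enzyme of prostaglandin synthesis. Its signals were 9.92, 9.95 and 10 in A2663/v and 9.42, 9.87 and 9.63 in Pb/2, against 11.28, 11.11 and 11.33 in BL15598 and 10.86, 10.99 and 10.65 in Canton S. All mutant arrays were below all wild-type arrays, with a gap between the highest mutant array and the lowest wild-type array, at 10.65. Pxt fell by 1.24 ± 0.08 on the log2 scale (SE, adjusted p = 3.83e-08; 2.36-fold lower). Its change was called in 3 of the 4 pairs, at -1.29 ± 0.11 in A2663/v minus BL15598, -1.60 ± 0.11 in Pb/2 minus BL15598 and -1.19 ± 0.11 in Pb/2 minus Canton S (SE; adjusted p = 1.41e-06, 1.51e-07 and 2.84e-06). In A2663/v minus Canton S it was -0.88 ± 0.11 (SE, adjusted p = 5.92e-05), under 2-fold. BL15598 lay above Canton S by 0.41 ± 0.11 (SE, adjusted p = 0.0165). Of its nearest tested neighbours, osa changed by 0.17 (adjusted p = 0.0728) and CG43102 was called higher, at 1.35 (adjusted p = 7.36e-05). The means of CG43102 were 4.58 (A2663/v), 6.13 (Pb/2), 3.92 (BL15598) and 4.08 (Canton S). Only its Pb/2 mean lay over the floor, so the size of its change is not a measured one.

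In bulk ovaries fewer cells of a type and less RNA per cell cannot be told apart, and this touches Pxt, sn and kel alike. Late egg chamber markers differed by genotype. Of 9 such markers (6 chorion and 3 other eggshell genes) 3 were tested, and all 3 fell in the mutants on average. By pair they did not all fall. In Pb/2 minus Canton S their log2 changes were 0.35 to 0.75, with 0 called. In A2663/v minus Pb/2 they were -4.79 to -2.45, where Pxt was at 0.31, sn at -0.07 and kel at -0.02. The summed linear signal of the 9 markers was 55 to 178 in A2663/v and 323 to 3577 in Pb/2, against 2551 to 3875 in BL15598 and 705 to 1084 in Canton S. Cp16, Cp18, Cp19, Cp36 and Cp38 were under the floor on every array. Pb/2 and Canton S overlapped in this sum. The summed signal of 7 sheath muscle markers was 8789 to 10130 in A2663/v and 8394 to 9066 in Pb/2, against 6488 to 7466 in BL15598 and 8767 to 12299 in Canton S, with all 7 over the floor on every array. For RNA quality, the GAPDH control's 3' probe set exceeded its 5' probe set on the log2 scale by 2.27 to 2.54 in the mutants and 1.67 to 2.43 in the wild types. For the eIF4A control this was 2.66 to 3.30 in the mutants and 2.06 to 3.05 in the wild types, and for the actin control 1.03 to 1.43 and 0.75 to 1.35. The part of these differences in the changes of Pxt, sn and kel was not tested.

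Digestive enzyme genes, markers of gut, were high on replicates 1 and 3 of A2663/v and replicates 1 and 2 of Pb/2, with mean log2 signals of 6.16, 6.98, 5.89 and 7.46 over 8 genes, against 2.28 and 2.42 on the remaining mutant arrays and 2.26 to 4.19 on the wild-type arrays. Without those 4 arrays f was at 3.80 (adjusted p = 0.000324), kel at 0.43 (adjusted p = 0.00364), sn at -0.65 (adjusted p = 0.00186) and Pxt at -1.25 (adjusted p = 2.74e-05). Over all arrays these were 3.90, 0.47, -0.67 and -1.24. Leaving them out keeps 1 array of each mutant, so the spread then comes from the wild types alone and the mutants are assumed to vary like them.

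The 4 pairs of a mutant and a wild type share arrays, so their counts are given side by side and not as separate evidence. Members called were f higher with Pxt and Arpc1 lower in A2663/v minus BL15598, and the same 3 in Pb/2 minus BL15598. Against Canton S, f and Arpc1 were called higher in both mutants, and Pxt lower in Pb/2 alone. Of all genes, 4.71% were called higher and 2.73% lower in A2663/v minus BL15598, and 4.56% and 3.12% in Pb/2 minus BL15598. Against Canton S 3.1% and 2.66% were called in A2663/v, and 3.13% and 2.61% in Pb/2. At an adjusted p under 0.05 alone, 2 members were higher and 3 lower in A2663/v minus BL15598, where 21% and 19.9% of all genes were. In Pb/2 minus BL15598 there were 2 and 4, where 17.9% and 24.9% of all genes were. In A2663/v minus Canton S there were 3 and 2 (12.3% and 14.6% of all genes), and in Pb/2 minus Canton S 3 and 3 (10.1% and 18.4% of all genes). The gene hts was among the lower members in both Pb/2 pairs and in neither A2663/v pair. Between the 2 mutants limma called 0 of the 9 members, where 2.09% of all genes were called. There hts, cher and Pxt had an unadjusted p under 0.05 (0.00295, 0.0432 and 0.0138). Of these hts passed after adjustment, at 0.38 ± 0.10 (SE, A2663/v minus Pb/2; adjusted p = 0.0413), where 5.08% of all genes were higher.

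Across the 12 arrays the level of kel ran opposite to sn (Pearson r = -0.94) and to Pxt (r = -0.94), and sn ran with Pxt (r = 0.91). These are descriptions over arrays that group by genotype and share the mutant and wild-type split. The tested genes most like f by Pearson correlation over the 12 arrays were Rbp9, an RNA-binding protein of the ELAV family (r = 0.974), tipE, an auxiliary sodium channel subunit (r = 0.973), and Nlg2, a neuroligin (r = 0.973). In BL15598 and Canton S the means of tipE were 3.81 and 3.59, and those of Nlg2 3.13 and 3.49, under the floor. As f lay under the floor on 5 wild-type arrays, these likenesses rest in part on values that are not measured. Those most like Pxt were yin, Mccc2 and CG3918 (r = 0.987, 0.975 and 0.973). For Arpc1 they were Acat1, CG31219 and CG5961 (r = 0.989, 0.985 and 0.976). The means of CG31219 were 6.76 (A2663/v), 6.45 (Pb/2), 8.55 (BL15598) and 2.28 (Canton S), the same order as Arpc1. The Canton S mean lay under the floor for both genes. Those most like sn were CG18135, mbm and CD98hc (r = 0.963 to 0.972), and those most like kel were Fmo-2, Alms1a and RhoGAP100F (r = 0.934 to 0.947). The wild-type means of RhoGAP100F, 3.62 (BL15598) and 4.76 (Canton S), lay under the floor. For qua they were Sf3b2, Zn72D and CG7376, for cher htk, Remo and Trap1, for hts Deaf1, Skp2 and CG12581, and for chic vig2, CG5808 and CG31142, with r from 0.828 to 0.952.

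Other actin genes were taken from 8 lists of 78 genes, of which 56 had a probe set of their own and 52 were tested. None of the 52 was called in mutants minus wild types by limma, where 5.83% of all genes were. At an adjusted p under 0.05 alone 15 were higher and 6 lower, where 20.3% and 26.6% of all genes were. The median log2 change was 0.12, against -0.03 over all genes tested, and the range was -0.94 to 0.83. Mutant and wild-type arrays separated fully for 3 of the 52, capu and pbl above and twf below, where 13.7% of all genes separated.

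Of 9 genes of ring canals and cytokinesis remnants, 6 were higher and 0 lower at the adjusted p alone, where 20.3% of all genes were higher, and the median was 0.17. The gene pbl, needed for cytokinesis, changed by 0.49 ± 0.07 (SE), with means of 10.44 ± 0.11 in the mutants and 9.94 ± 0.14 in the wild types (SD, n = 6; adjusted p = 5.49e-05). The anillin gene scra changed by 0.48 ± 0.10 (SE, adjusted p = 0.00142), and tum, a Rac GTPase activator of the cytokinetic ring, by 0.44 ± 0.08 (SE, adjusted p = 0.000626). All 3 were under 2-fold. By pair, 4 of the 9 were higher in A2663/v minus BL15598, 6 in Pb/2 minus BL15598, 4 in A2663/v minus Canton S and 1 in Pb/2 minus Canton S, with 0 lower in each. In that order of pairs 21%, 17.9%, 12.3% and 10.1% of all genes were higher.

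Of 10 genes of actins and filament turnover 3 were lower and 1 higher at the adjusted p alone, where 26.6% and 20.3% of all genes were, and a median of -0.04. The twinfilin gene twf, whose product binds actin monomers, lay at 8.28 ± 0.37 in the mutants and 9.04 ± 0.08 in the wild types (SD, n = 6), so that it changed by -0.75 ± 0.12 (SE, adjusted p = 0.000227). The fimbrin gene Fim, another bundling protein, changed by -0.43 ± 0.05 (SE, adjusted p = 2.51e-05), and the alpha-actinin gene Actn by 0.28 ± 0.09 (SE, adjusted p = 0.0268). Of 10 genes of the Arp2/3 complex and its activators, 1 was higher and 2 lower. The adaptor gene cindr, whose product is known at ring canals, lay at 5.20 ± 0.39 in the mutants and 6.14 ± 0.31 in the wild types (SD, n = 6; -0.94 ± 0.18, SE, adjusted p = 0.000965). Arpc3A changed by -0.33 (adjusted p = 0.00818) and Abi, of the SCAR activator complex, by 0.18 (adjusted p = 0.0374).

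Among 5 genes of linear filament nucleation, the formin gene capu, which builds the oocyte's actin mesh, was at 7.78 ± 0.16 in the mutants and 7.23 ± 0.18 in the wild types (SD, n = 6; 0.55 ± 0.10, SE, adjusted p = 0.000571). The formin gene dia changed by -0.24 (adjusted p = 0.0482). Of 6 actomyosin genes 3 were higher: Strn-Mlck, near the floor at 5.05 in the mutants and 4.22 in the wild types (adjusted p = 0.017), Mbs, a myosin phosphatase subunit, by 0.28 (adjusted p = 0.0217), and Pak, a kinase, by 0.22 (adjusted p = 0.0168). Of 6 spectrin and fusome genes, the kinase gene par-1 was 0.31 higher (adjusted p = 0.00257) and beta-Spec 0.29 (adjusted p = 0.0234). Of 4 adhesion genes alpha-Cat was 0.22 higher (adjusted p = 0.0159), and the 2 transcription genes Mrtf and bs did not pass.

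Of the 52 genes, 18 were higher and 3 lower in A2663/v minus BL15598, and 18 and 5 in Pb/2 minus BL15598, at an adjusted p under 0.05. Of all genes 21% and 19.9% were in the first of these pairs, and 17.9% and 24.9% in Pb/2 minus BL15598. Against Canton S the counts were 5 higher and 7 lower in A2663/v, and 2 and 9 in Pb/2, where 12.3% and 14.6%, and 10.1% and 18.4%, of all genes were. Between the wild types, 1 was higher and 14 lower in BL15598 minus Canton S, where 11.2% and 14.2% of all genes were. The plot of other actin genes by list gives the average changes.

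**Figure D5:**
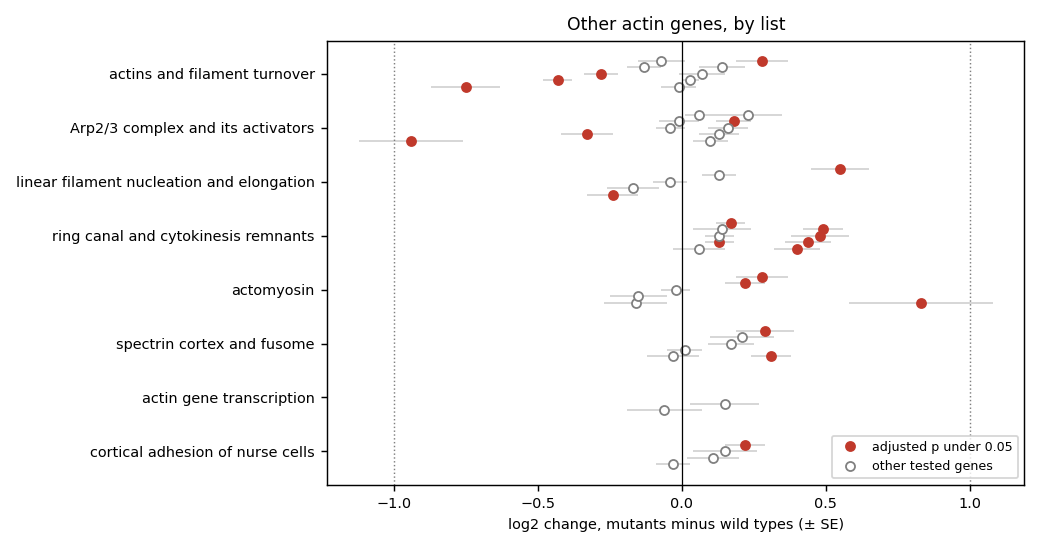
Change on the log2 scale (± SE), mutants minus wild types, of 52 other actin genes in 8 lists, with filled points for an adjusted p under 0.05 and dotted lines at 2-fold. No gene passes 2-fold, and the filled points of the ring canal and cytokinesis list all lie above 0.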

How the data were processed

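Ovary cDNA of 12 samples was hybridised to 18952 probe sets. The deposited log2 values were made by the authors with Partek 6.5 and GCRMA, per the submitters' processing notes, and run from 1.60 to 15.64. GCRMA subtracts a background predicted from probe sequence, so signals near background are compressed. For the order and settings of these steps nothing is stated in the labels. Gene names came from the platform's annotation table, with symbols updated from RefSeq (Release 6). A gene was represented by its single-gene probe set of highest mean, and genes over log2 5 on at least 3 of 12 arrays were tested (6163).

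A model of 4 genotype means was fitted to all arrays with limma 3.58.1 in R 4.3.3, with a variance trend and Benjamini-Hochberg adjustment over all genes. On simulated data for mutants minus wild types (6163 genes) 99% of 4-fold changes were called, with 0 false calls. For the real arrays the share of false calls was not tested. On the real arrays genotype as a random block left 212 calls, against 359 without it. Named are all members, the alleles' genes, up to 3 genes per list with the largest change at an adjusted p under 0.05, and the 3 genes most like each member. Neighbouring genes and a test of whether the mutant effect differed between the pairs A2663/v with BL15598 and Pb/2 with Canton S were added after the values were seen. Members and lists were chosen with earlier results of these data known. Arrays have no sequencing depth, and 3 per genotype limit the precision. Replicates are biological per the labels. Arrays of a genotype correlated at 0.963 to 0.995. Deviations of same-numbered arrays correlated at -0.527 to 0.368, so the numbers were not taken as pairs. Alternatives changed the scaling, the filter and floor on low values, the summary of probe sets, the variance model, the blocks, the fold minimum and the arrays included.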

Additional observations from a re-analysis of the deposited data

Results flagged for a closer look

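The change of Arpc1 from wild type to mutant depended on the wild type it was set against. Arpc1 was lower in A2663/v than in BL15598 (log2 change -2.14, adjusted p = 3.27e-06) and at least 2.06-fold higher in Pb/2 than in Canton S (adjusted p = 3.88e-08). The fitted difference of the 2 effects was -5.49 on the log2 scale (limma adjusted p = 2.2e-08), where 7.14% of all genes were called in this test. Its size is not a measured one, since all Canton S arrays lie under the floor, and with them at the floor it is at least 3.18 below 0. By its form it equals A2663/v minus Pb/2 less BL15598 minus Canton S. The first of these was 0.35 (limma adjusted p = 0.347) and the second at least 3.53. The flagged difference thus mainly restates the gap between the wild types. All 3 arrays of A2663/v lay below those of BL15598, and all 3 of Pb/2 above those of Canton S. The same test gave 0.57 ± 0.15 for hts (SE, adjusted p = 0.0158) and -0.58 ± 0.17 for sn (SE, adjusted p = 0.0293), both under the fold minimum. For sn A2663/v minus Pb/2 was -0.07 and BL15598 minus Canton S 0.51. For hts these were 0.38 and -0.19.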

How the results depend on the processing

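In mutants minus wild types f stayed called higher and Pxt lower under the 12 of 14 alternatives that give a value per gene and with each of 12 arrays left out. Their log2 changes ran from 1.95 (mean of both f probe sets) to 3.92 for f and from -1.25 to -1.20 for Pxt. With arrays left out in turn they ran from 3.68 to 4.22 for f and from -1.30 to -1.18 for Pxt. With genotype as a random block (correlation 0.39) adjusted p was 7.29e-05 for f, 0.000165 for Pxt, 0.0142 for kel and 0.0214 for sn. Over all genes that block left 212 calls (against 359) and 678 genes at an adjusted p under 0.05 (against 2892) of 6163. The replicate block left f at 3.90 (adjusted p = 1.52e-07) and Pxt at -1.24 (adjusted p = 2.37e-07) and changed no call of a member. Replicate numbers did not pair the arrays, since 4 of 12 correlated best with their own number. Raising values to the floor turned Arpc1 to -0.55 (adjusted p = 0.0016), since Canton S lies under it. Averaging probe sets turned hts to 0.14 (adjusted p = 0.0796), since its probe sets disagree. With arrays left out cher ran from -0.01 to 0.05 and chic from -0.01 to 0.04. With each probe set tested separately, members called higher became 2 in mutants minus wild types, A2663/v minus BL15598 and Pb/2 minus BL15598, the added one being 1634736_at of hts. With no fold minimum, members higher and lower became 3 and 2 in mutants minus wild types, where 15 pathway genes were higher and 6 lower. Of all genes 20.3% were then higher and 26.6% lower. Members higher then became 2 in A2663/v minus BL15598 and in Pb/2 minus BL15598, 1 in A2663/v minus Pb/2 and 3 in BL15598 minus Canton S. In that order 21%, 17.9%, 5.08% and 11.2% of all genes were higher. Members lower became 2 in A2663/v minus Canton S, 4 in Pb/2 minus BL15598, 3 in Pb/2 minus Canton S and 1 in BL15598 minus Canton S. In that order 14.6%, 24.9%, 18.4% and 14.2% of all genes were lower. With arrays left out, pathway genes called ran from 0 to 1 in each direction and members lower from 2 to 3 in each mutant minus BL15598. The higher pathway count came without Canton S replicate 3 for genes above, and without A2663/v replicate 2, Canton S replicate 3 or Pb/2 replicate 1 for genes below. The count of 3 members came without A2663/v replicate 3 or BL15598 replicate 1 in A2663/v minus BL15598, and without Pb/2 replicate 2 in Pb/2 minus BL15598. Signal under the floor limits f and Arpc1 to bounds.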
